A study of Mus musculus with 10 samples.

Results

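The expression of 9 genes that oligodendrocytes use to build myelin, Mbp, Mog, Mag, Mobp, Cnp, Cldn11, Mal, Ugt8a and Aspa, was compared in the hippocampus of mice that explored an open field much or little. Each gene was taken with all the probe sets whose platform annotation gave exactly 1 gene symbol equal to its name, which gave 24 of the 45037 probe sets analysed besides controls, for 9 of 18193 genes. Mbp had 8 of them, Mobp 5, Cnp 3, Mal and Ugt8a 2 each, and Mog, Mag, Cldn11 and Aspa 1 each.

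Whole hippocampus was taken from 5 High Exploration and 5 Low Exploration mice, 1 array per mouse. All were inbred Balb c/J females obtained from Jackson that shared a day of birth, no allele or agent is named that would set the groups apart, and the sources used here give no age at dissection for these animals. They had been ranked by a composite score over repeated open field tests, an arena in which movement and visits to the centre are recorded, and the groups were the most and the least active of them. The behaviour therefore defined the groups, and no manipulation did.

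Oligodendrocytes wrap axons in myelin, a stack of lipid-rich membrane that speeds the conduction of impulses. Its membranes are held together by basic and adhesion proteins, sealed at the edges by tight junctions, and filled with galactolipids and cholesterol. In the hippocampus, myelinated axons run mainly in the alveus, the fimbria and the stratum lacunosum-moleculare. In such bulk tissue fewer oligodendrocytes and less RNA per oligodendrocyte cannot be told apart.

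All 10 markers listed for hippocampal neurons had a signal in the range tested, 5 with a higher and 5 with a lower mean in High Exploration mice, and they were split. Neurod6 and Syt1 differed by 1.18 and 1.04, and Slc17a7 by −2.11 with groups that did not overlap (limma adjusted p = 0.0726, 0.147 and 0.0644). The mean log2 signal of the list was 10.90 to 11.42 in High Exploration mice, against 10.98 to 11.57 in Low Exploration mice. The arrays of the groups also differed as wholes. Median log2 signal was 7.16 to 7.68 in High Exploration mice, against 7.83 to 8.09 in Low Exploration mice (exact 2-sided permutation p = 0.00794, the smallest that 5 against 5 arrays allow). The log2 signal of the spiked hybridisation controls averaged 13.63 ± 0.308 in High Exploration mice, against 14.24 ± 0.293 in Low Exploration mice (SD, n = 5 each, exact permutation p = 0.0159), and the poly-A controls, added before labelling, averaged 11.63 ± 0.491 in High Exploration mice, against 13.10 ± 0.443 in Low Exploration mice (exact permutation p = 0.00794). The log2 ratio of the 3′ to the 5′ probe sets of Gapdh was 4.72 ± 0.481 in High Exploration mice, against 3.72 ± 0.228 in Low Exploration mice (exact permutation p = 0.0159). The same ratio for beta-actin was 5.30 ± 0.582 in High Exploration mice, against 4.97 ± 0.751 in Low Exploration mice (exact permutation p = 0.484). Their part in the results on the myelin genes was not tested.

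No myelin probe set passed the test between the groups. Of the 24, 18 had a mean log2 signal above the median of all probe sets and were tested with limma, and 0 of the 18 had an adjusted p under 0.05, where 0.0133% of all 22518 probe sets tested did. At an unadjusted p under 0.05, 4 of the 18 were higher in High Exploration mice and 2 were lower, beside 9.67% of all tested probe sets higher and 20.5% lower. The 4 were Cldn11 1416003_at, Ugt8a 1419063_at, Mobp 1433785_at and Mbp 1433532_a_at, and the 2 were Mbp 1425263_a_at and Mobp 1436263_at. The groups did not overlap for 3 of the 18, Cldn11 upward and the Mbp and Mobp probe sets just named downward, beside 8.83% of all tested probe sets (2.14% upward and 6.69% downward).

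The direction of the difference was mixed, with the probe set of strongest signal of each gene mostly positive. Of the 18 tested, 11 had a positive difference (61.1%), against 38.1% of all probe sets tested, and their median difference was 0.37 on the log2 scale, against −0.31 over all tested. Of the 9 probe sets with the highest mean signal of their gene, called representatives below, 7 had a positive difference, with a median of 0.63. Most myelin probe sets had a strong signal, with 9 of the 24 in the highest decile of mean log2 signal and 7 in decile 9. Among all probe sets of the highest decile 65.6% were positive, with a median of 0.43. In decile 9 the share was 43.6%, with a median of −0.17. Over all 24, the count was 13 positive and 11 negative, where 31% of all 45037 probe sets were positive. The median over all tested probe sets moved with the scaling of the arrays, to 0.23 when each array was centred on its median and to 0.30 when the hybridisation controls were set equal. These scalings shift all probe sets alike and leave the gap between the medians at 0.67, but the gap was 0.14 with quantile normalisation (0.12 for the members, −0.014 for all tested) and 0.15 with cyclic loess (0.13 and −0.017).

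**Figure D1:**
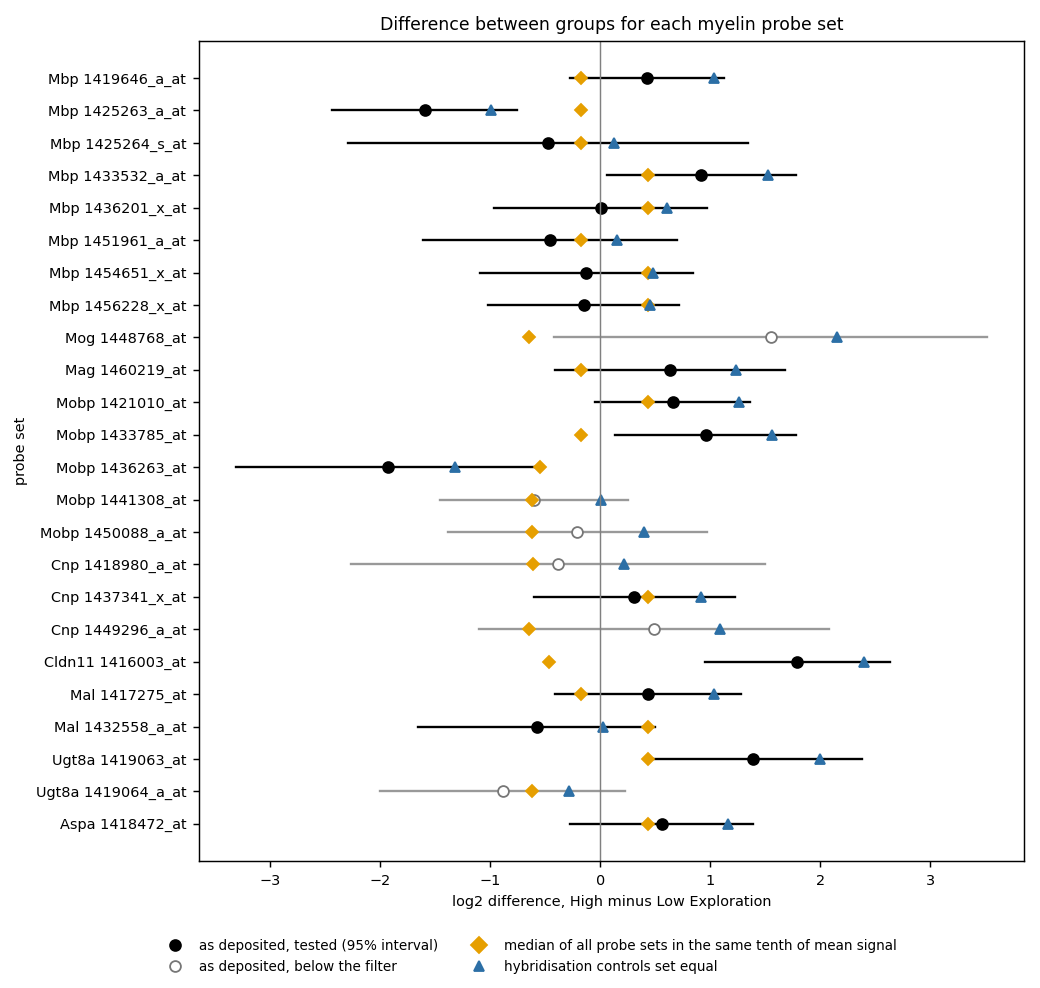
Log2 difference in signal, High minus Low Exploration, for each of the 24 myelin probe sets (points with 95% intervals from limma, open where the probe set was below the filter), with the median of all probe sets of the same decile of mean signal (diamonds) and the value with hybridisation controls set equal (triangles). Cldn11 stands farthest to the right at 1.79 and Mobp 1436263_at farthest to the left at −1.93, and probe sets of Mbp, Mobp, Cnp, Mal and Ugt8a lie on both sides of 0.

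The promoters shown are of the genes with a tested probe set higher at an unadjusted p under 0.05. They are shown because 1 pair of these genes, Mobp and Ugt8a, also varied together between mice. These results rest on different Mobp probe sets. The one higher was 1433785_at, and the one that varied with Ugt8a was 1421010_at (limma unadjusted p = 0.0650). After removal of the group means, the r between these Mobp probe sets was 0.13. Mobp also had a tested probe set lower at an unadjusted p under 0.05, 1436263_at (difference −1.93, limma unadjusted p = 0.00969). So did Mbp, with 1425263_a_at (difference −1.60, limma unadjusted p = 0.00123). Of the 9 genes, 8 had windows in the RefSeq promoter table (build GRCm38.p6, 250 bases before to 50 after the start, 10 windows in all). Mbp is named only. Capitals mark any match, on either strand, to ACAAAG or ACAATG (letters bound by SOX proteins), CTGGCAC (bound by MYRF), CAGCTG (an E-box), GGGCGG (a GC box) or TATAAA.
Mobp, chr9:120149492-120149791, + strand: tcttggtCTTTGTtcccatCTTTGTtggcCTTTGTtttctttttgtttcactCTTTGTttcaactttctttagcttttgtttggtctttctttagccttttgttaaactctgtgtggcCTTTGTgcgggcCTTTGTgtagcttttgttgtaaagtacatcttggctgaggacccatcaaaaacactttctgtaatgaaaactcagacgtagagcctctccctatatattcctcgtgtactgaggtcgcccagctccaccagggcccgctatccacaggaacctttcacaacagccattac
Cldn11, chr3:31149670-31149969, + strand: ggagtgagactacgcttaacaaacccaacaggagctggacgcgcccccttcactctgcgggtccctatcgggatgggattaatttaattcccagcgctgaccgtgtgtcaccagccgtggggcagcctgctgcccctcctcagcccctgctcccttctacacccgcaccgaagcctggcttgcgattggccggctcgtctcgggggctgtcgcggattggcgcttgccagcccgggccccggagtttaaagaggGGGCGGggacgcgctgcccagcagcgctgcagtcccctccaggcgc
Ugt8a, chr3:125938603-125938902, − strand: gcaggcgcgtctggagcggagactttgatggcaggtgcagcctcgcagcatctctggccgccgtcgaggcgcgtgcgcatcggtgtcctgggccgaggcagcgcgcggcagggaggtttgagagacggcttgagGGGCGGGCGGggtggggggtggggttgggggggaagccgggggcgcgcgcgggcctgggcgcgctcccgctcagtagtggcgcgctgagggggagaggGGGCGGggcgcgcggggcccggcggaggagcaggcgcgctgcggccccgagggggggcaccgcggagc

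The Mobp window held 6 copies of ACAAAG, all on the reverse strand and between bases −243 and −120 from the start site, where 18.7% of 32851 promoter windows held at least 1. The share of windows with several copies was not counted. The Mobp window held none of the other letters searched. The Cldn11 window had a single GGGCGG at base 5, just past the start, and the Ugt8a window had 3, of which those at bases −116 and −112 share letters. This motif was in 35.7% of all windows. None of the 3 windows had ACAATG (12.6% of all windows), CTGGCAC (5.01%), CAGCTG (16.3%) or TATAAA (13.6%). CTGGCAC was present in the window of Cnp and in 2 of the 3 windows of Mag, each of which also held an ACAAAG. Those 2 Mag windows overlap, and their matches are the same sites. A match describes the letters only.

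Among the proteins that build and seal the sheath, Cldn11 stood farthest above its background. Cldn11 encodes claudin 11, also called oligodendrocyte-specific protein, which forms the tight junction strands between myelin layers. Its log2 signal was 10.02, 10.17, 9.51, 9.16 and 9.11 in the 5 High Exploration mice, against 8.02, 8.52, 7.19, 8.20 and 7.08 in the 5 Low Exploration mice. Every High Exploration mouse lay above every Low Exploration mouse, with a gap of 0.58 between the groups. The difference was 1.79 (SE 0.39, 95% interval 0.95 to 2.63), a 3.46-fold higher signal, with a limma adjusted p of 0.0581. This is the smallest adjusted p of any member and misses the threshold. The median of the probe sets in the same decile of mean signal was −0.47. Under 3 of the alternative settings it passed. Its adjusted p was 0.0498 with median centring, which called 4.02% of all tested probe sets, 0.0499 with a pseudocount, which called 1.51%, and 0.0397 with array weights, which called 9.71%. It was also 0.0424 without High Exploration replicate 5, where 5.40% were called, and up to 0.133 when another array was left out.

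Mbp encodes myelin basic protein, which holds the cytoplasmic faces of the membrane together, and its 8 probe sets gave opposite answers. Probe set 1425263_a_at was 8.83, 8.72, 9.76, 8.64 and 7.69 in High Exploration mice, against 10.54, 10.20, 10.42, 9.83 and 10.63 in Low Exploration mice. All 5 High Exploration values lay below all 5 Low Exploration values, by a gap of 0.071. The difference was −1.60 (SE 0.39, limma adjusted p = 0.0620), where the median of its decile was −0.17. With array weights, which called 9.71% of all tested probe sets, its adjusted p was 0.0401.

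Another Mbp probe set, 1433532_a_at, ran the other way. Its log2 signal was 12.15, 12.17, 12.44, 11.49 and 11.12 in High Exploration mice, against 10.60, 11.11, 10.97, 11.88 and 10.22 in Low Exploration mice. Of the High Exploration mice 3 lay above all Low Exploration mice, and Low Exploration replicate 4 lay above 2 of the High Exploration mice. The difference was 0.92 (SE 0.40, limma adjusted p = 0.144), and without that replicate the groups did not overlap, as for 11.9% of all tested probe sets.

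The 3 Mbp probe sets ending in _x_at, a suffix for probes that can also bind other transcripts, differed little between the groups. The representative, 1456228_x_at, was 16.16, 15.26, 15.39, 16.43 and 16.40 in High Exploration mice, against 15.02, 16.31, 15.97, 16.60 and 16.51 in Low Exploration mice. High Exploration replicates 2 and 3 and Low Exploration replicate 1 were the low arrays, so the spread lay within the groups. The 3 differences were −0.15, −0.13 and 0.00, with adjusted p from 0.815 to 0.998, and the interval for the representative ran from −1.02 to 0.72. Without Low Exploration replicate 1 they were −0.42, −0.46 and −0.32, and the representative turned to 0.38 with median centring and to 0.45 with equal hybridisation controls. The remaining Mbp probe sets, 1419646_a_at, 1425264_s_at and 1451961_a_at, differed by 0.42, −0.48 and −0.46 with overlapping groups.

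Mobp, the myelin-associated oligodendrocyte basic protein, is thought to act beside Mbp in compact myelin. Its representative 1421010_at was 11.88, 11.41, 10.74, 11.46 and 10.94 in High Exploration mice, against 10.85, 10.77, 10.26, 10.74 and 10.54 in Low Exploration mice. Only High Exploration replicate 3 fell among the Low Exploration values. The difference was 0.66 (SE 0.33, limma adjusted p = 0.189). Probe set 1433785_at was 10.39, 10.28, 10.95, 9.42 and 9.53 in High Exploration mice, against 9.55, 9.53, 8.54, 9.26 and 8.90 in Low Exploration mice, a difference of 0.96 (SE 0.38, adjusted p = 0.122). Here High Exploration replicates 4 and 5 overlapped the Low Exploration mice.

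Probe set 1436263_at of Mobp went against both. It was 8.00, 7.88, 7.95, 6.68 and 4.31 in High Exploration mice, against 8.15, 9.24, 8.76, 9.51 and 8.82 in Low Exploration mice. The groups did not overlap, by a gap of 0.15, and High Exploration replicate 5 was far below the rest. The difference was −1.93 (SE 0.64, limma adjusted p = 0.0864), and −1.27 without that array. The other Mobp probe sets, 1441308_at and 1450088_a_at, were below the filter, with mean log2 signals of 3.70 and 4.54 in High Exploration mice, against 4.30 and 4.75 in Low Exploration mice, and their differences were −0.60 and −0.21.

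**Figure D2:**
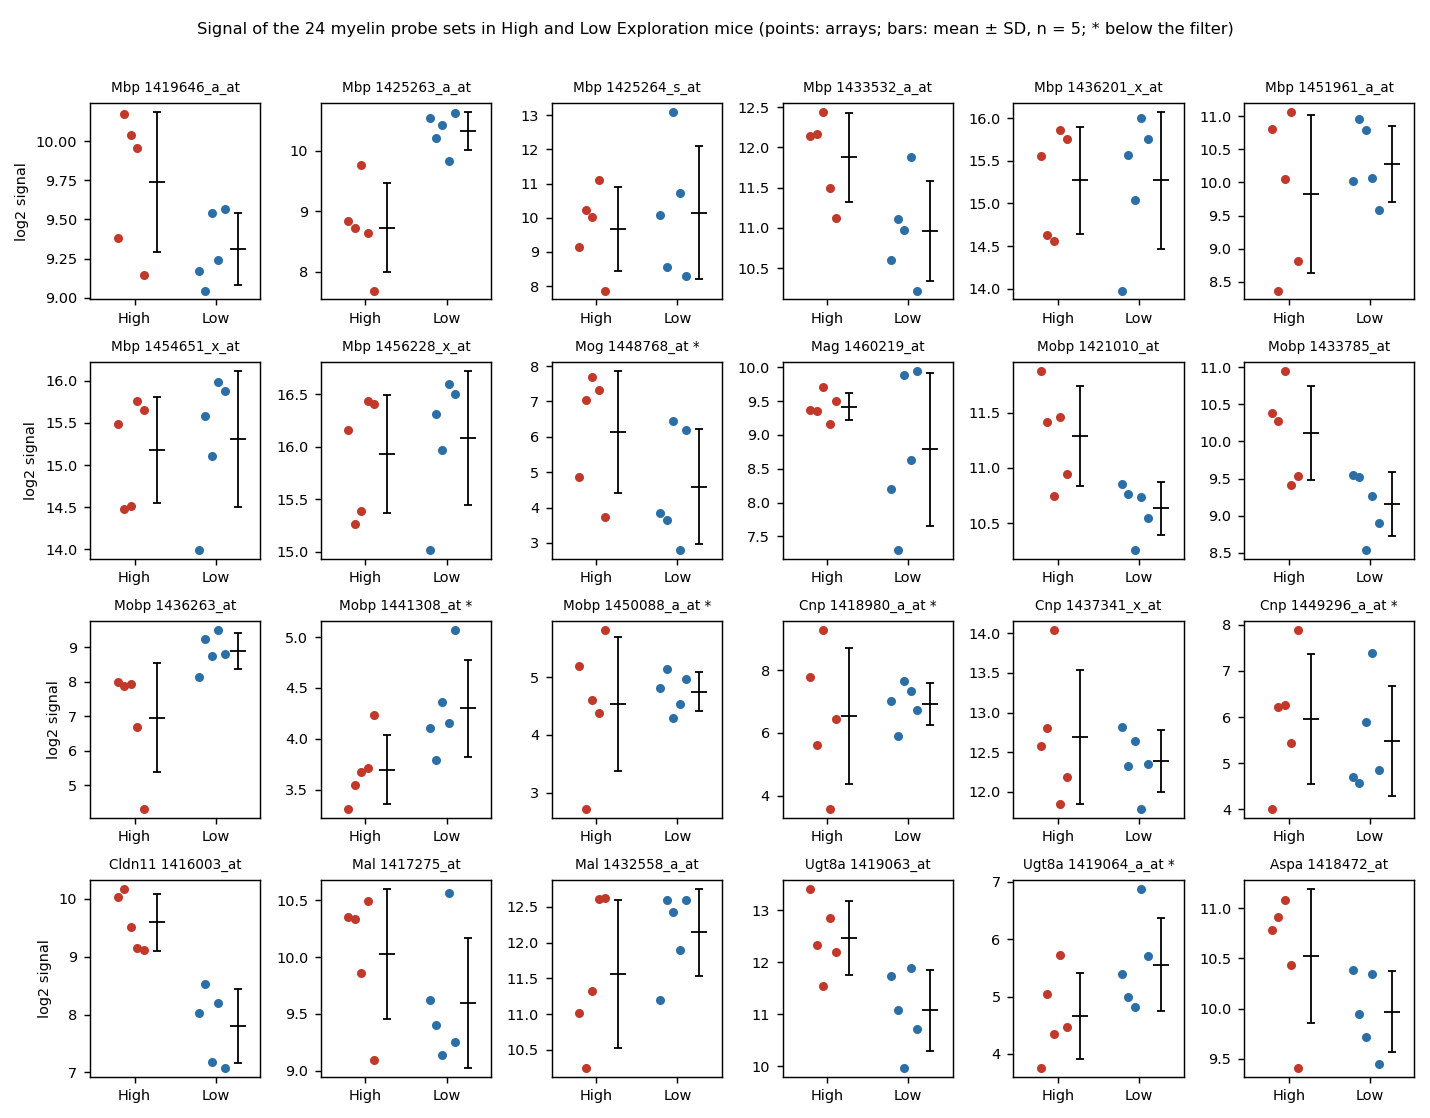
Log2 signal of each of the 24 myelin probe sets in the 5 High Exploration (left) and 5 Low Exploration (right) mice, each point 1 array, with the group mean and SD beside it and an asterisk on the 6 probe sets below the filter. Each panel has its own axis. The groups separate upward for Cldn11 and downward for Mbp 1425263_a_at and Mobp 1436263_at, and overlap in the other panels.

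Mog, Mag and Cnp mark successive places in the sheath. Mog, an adhesion protein on the outermost surface of central myelin, was 4.87, 7.05, 7.68, 7.33 and 3.75 in High Exploration mice, against 3.84, 3.65, 6.45, 2.81 and 6.19 in Low Exploration mice. Its values spread over 4.86 log2 units across the 10 arrays and the probe set lay below the filter, so its difference of 1.55 (95% interval −0.42 to 3.51) was not tested.

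Mag, an adhesion protein on the inner membrane that faces the axon, was closely spaced in High Exploration mice and widely spaced in Low Exploration mice. Its log2 signal was 9.37, 9.36, 9.71, 9.17 and 9.50 in High Exploration mice, against 8.19, 7.30, 9.88, 8.62 and 9.95 in Low Exploration mice. The High Exploration values lay within 0.54 log2 units of each other and the Low Exploration values within 2.65, with Low Exploration replicates 3 and 5 above all High Exploration mice and the other 3 below them. The difference in means was 0.63 (SE 0.48, limma adjusted p = 0.381), and the difference in spread was not tested.

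Cnp encodes a nucleotide phosphodiesterase of the uncompacted myelin cytoplasm. Its representative 1437341_x_at was 12.57, 12.80, 14.04, 11.84 and 12.18 in High Exploration mice, against 12.81, 12.33, 12.64, 11.78 and 12.35 in Low Exploration mice. Only High Exploration replicate 3 stood above the Low Exploration range, and the difference of 0.31 (adjusted p = 0.634) was −0.032 without it, −0.22 with quantile normalisation and −0.14 with cyclic loess. The other Cnp probe sets, 1418980_a_at and 1449296_a_at, were below the filter and differed by −0.39 and 0.49.

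Mal, a proteolipid that takes part in sorting cargo to the myelin membrane, gave opposite signs. Probe set 1417275_at averaged 10.03 ± 0.57 in High Exploration mice, against 9.60 ± 0.57 in Low Exploration mice (SD, n = 5 each), a difference of 0.43 with a limma adjusted p of 0.461. The representative 1432558_a_at averaged 11.57 ± 1.03 in High Exploration mice, against 12.14 ± 0.60 in Low Exploration mice, a difference of −0.58 with an adjusted p of 0.434, which turned to 0.028 with equal hybridisation controls. The groups overlapped for both.

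Ugt8a and Aspa serve the lipids of myelin. Ugt8a encodes the enzyme that makes galactosylceramide, the signature galactolipid of the sheath. Probe set 1419063_at was 13.41, 12.34, 11.54, 12.85 and 12.21 in High Exploration mice, against 11.73, 11.08, 9.97, 11.89 and 10.72 in Low Exploration mice. Of the High Exploration mice 4 lay above all Low Exploration mice, and replicate 3 was the exception. The difference was 1.39 (SE 0.46, 95% interval 0.41 to 2.37), a 2.62-fold higher signal, with a limma adjusted p of 0.0846, and the median of its decile was 0.43. It passed with median centring (adjusted p = 0.0498) and with array weights (adjusted p = 0.0474). These settings called 4.02% and 9.71% of all tested probe sets. The other Ugt8a probe set, 1419064_a_at, was below the filter at means of 4.67 in High Exploration mice, against 5.56 in Low Exploration mice, a difference of −0.89.

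Aspa encodes aspartoacylase, which frees acetate from N-acetylaspartate for lipid synthesis in oligodendrocytes. It was 10.78, 10.91, 11.08, 10.43 and 9.41 in High Exploration mice, against 10.39, 9.94, 9.72, 10.34 and 9.45 in Low Exploration mice. High Exploration replicate 5 was below all Low Exploration mice and the other 4 were above them all. The difference was 0.56 (SE 0.39, limma adjusted p = 0.331), and without replicate 5 it was 0.83 and the groups did not overlap, as for 14.8% of all tested probe sets.

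The difference between the groups varied with the strength of the signal. Over all probe sets divided into 10 deciles of mean log2 signal, the median difference was 0.43 in the highest decile, where 65.6% of probe sets were positive, −0.17 in decile 9 and −0.47 in decile 8, and between −0.55 and −0.65 in the deciles below. Of the 24 myelin probe sets, 9 lay in the highest decile, with 6 positive, and 7 in decile 9, with 4 positive. Against the median of its own decile, the difference was higher for 14 of the 24 and for 6 of the 9 representatives. The differences from the decile median were 2.26 for Cldn11, 2.20 for Mog, 1.14 for Cnp 1449296_a_at, 1.13 for Mobp 1433785_at and 0.96 for Ugt8a 1419063_at. At the other end they were −1.43 for Mbp 1425263_a_at, −1.38 for Mobp 1436263_at, −1.01 for the Mal representative and −0.58 for the Mbp representative.

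**Figure D3:**
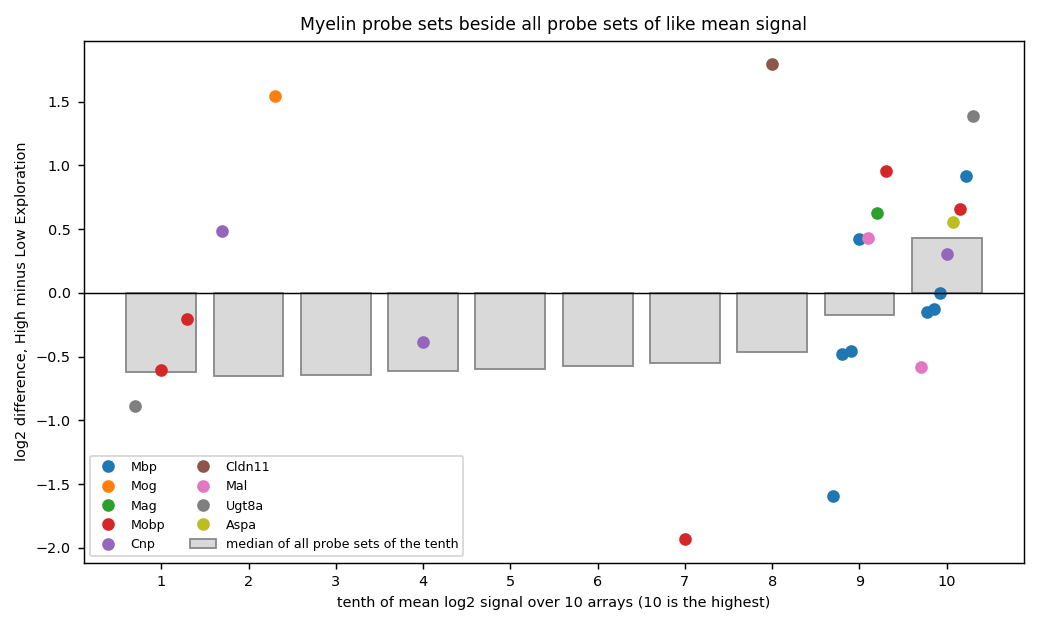
Log2 difference, High minus Low Exploration, of the 24 myelin probe sets (points, coloured by gene) by decile of mean log2 signal, with the median of all probe sets of each decile as bars. In the highest decile the bar is at 0.43 and points of Mbp and Mal lie under it, while Cldn11 at 1.79 stands above a bar of −0.47.

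Averaged over the representatives, log2 signal was 10.68 to 11.25 in High Exploration mice, against 10.23 to 10.60 in Low Exploration mice, with no overlap. The mean of all probe sets of the highest decile did not overlap either, at 11.86 to 11.95 in High Exploration mice, against 11.42 to 11.70 in Low Exploration mice. Averaged over all 24 myelin probe sets the groups did overlap, at 9.33 to 9.97 in High Exploration mice, against 9.32 to 9.84 in Low Exploration mice. These averages carry no test, because the genes were chosen with results of these data known.

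Probe sets of the same gene mostly did not vary together from mouse to mouse. After the group means were removed, the Pearson correlation over the 10 arrays was calculated for the 43 pairs of probe sets within a gene, with exact permutation within groups and Benjamini-Hochberg adjustment over the 43. The median was 0.10, with 22 pairs positive and 21 negative. An adjusted p under 0.05 was reached by 3 pairs, all between the _x_at probe sets of Mbp (r of 0.993 to 0.998, adjusted p = 0.00299). Outside these the highest r was 0.72, for Cnp 1418980_a_at with 1437341_x_at, which was −0.08 without the 2 arrays farthest out. The Mal pair had an r of −0.43 and the Ugt8a pair 0.34. Mbp 1425263_a_at ran at −0.53 with the Mbp representative.

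Among the representatives of different genes, Mobp 1421010_at and Ugt8a 1419063_at varied together. Of 36 pairs, 17 were positive and 19 negative, with a median of −0.14, and only this pair had an adjusted p under 0.05 over the 36 (r = 0.878, exact permutation p = 0.000625, Spearman rho = 0.855, exact permutation p = 0.00424, adjusted p = 0.0225, n = 10 arrays). Without the 2 arrays farthest from the median of Mobp 1421010_at, r was 0.767. In both groups, replicate 3 was the lowest mouse for both of these probe sets. The other Mobp probe sets were not set against Ugt8a. For Mobp 1433785_at, High Exploration replicate 3 was the highest of its group, at 10.95. Mbp with Cnp had an r of −0.735 (adjusted p = 0.115) and Mal with Aspa −0.768 (adjusted p = 0.160). The correlation of a representative with the mean of the other 8 was 0.02 at most, for Aspa, and −0.56 at the lowest, for Ugt8a.

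**Figure D4:**
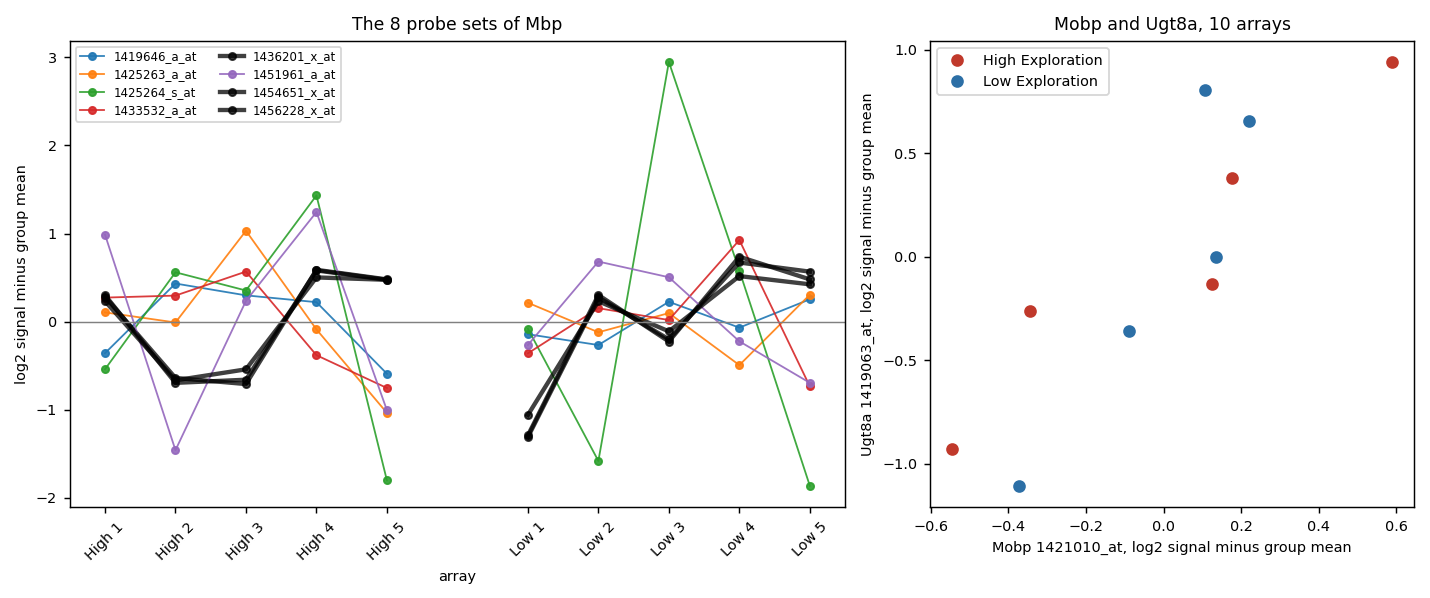
Left, log2 signal minus the group mean of the 8 Mbp probe sets in each of the 10 arrays, the _x_at probe sets in thick black (lines only join the values of a probe set). Right, the same deviation for Ugt8a 1419063_at against Mobp 1421010_at, each point 1 array. The black lines nearly coincide (r up to 0.998) while the other Mbp probe sets leave them, and the Mobp and Ugt8a points follow a rising line (r = 0.878).

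The genes whose pattern was most like the mean of the 9 representatives, after removal of group means, were Chd4 (r = 0.945), Zfp59 (0.930), Inava (0.929), Fank1 (0.926), Evc (0.919) and Trmt11 (0.916), over 10 arrays and 18060 probe sets. These values are a description with no test, and Mog had the widest spread among the representatives that made up the mean.

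The rest of the myelin programme, taken from lists of other genes, had no probe set that passed either. Of 27 other myelin genes 23 were analysed here, and 27 of their 49 probe sets were tested, 14 with a positive difference and a median of 0.10. At an unadjusted p under 0.05, 4 were higher and 3 lower, beside 9.67% higher and 20.5% lower over all tested, of which 38.1% were positive. Tspan2 1424567_at, a probe set of a tetraspanin of oligodendrocytes, averaged 8.82 ± 0.35 in High Exploration mice, against 7.78 ± 0.53 in Low Exploration mice (difference 1.03, limma adjusted p = 0.0903) with no overlap. The other Tspan2 probe sets, the representative 1432417_a_at and 1424568_at, differed by 1.19 and 1.46 with overlapping groups. Omg, a myelin glycoprotein that inhibits neurite growth, differed by −2.21 (adjusted p = 0.110), and Nfasc 1459357_at, a probe set of the adhesion protein neurofascin of nodes and paranodes, by −1.05 (adjusted p = 0.110) with no overlap. The other Nfasc probe sets, 1436205_at and 1456068_at, differed by 0.26 and −0.53 with overlapping groups.

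The enzymes that supply myelin lipids were also divided. Of 30 probe sets of 13 genes 20 were tested, 9 with a positive difference, and the median was −0.17. At an unadjusted p under 0.05, 4 were higher and 2 lower, beside the same 9.67% and 20.5%, with 38.1% positive. Scd1, a fatty acid desaturase, averaged 12.02 ± 0.92 in High Exploration mice, against 9.94 ± 1.07 in Low Exploration mice (difference 2.09, limma adjusted p = 0.0654), while Scd2 1415824_at, of the same family, differed by −1.67 (adjusted p = 0.0822). The other probe sets of these genes were mixed, with 0.34 for the Scd2 representative 1415822_at, −1.86 for Scd2 1415823_at, which was below the filter, and −0.51 for Scd1 1415965_at. Hmgcs1 1433444_at, of the cholesterol pathway, averaged 10.35 ± 0.49 in High Exploration mice, against 9.26 ± 0.13 in Low Exploration mice (difference 1.08, adjusted p = 0.0746) and did not overlap. Its other probe sets differed by 1.12, −0.12, −1.16 and −0.31, the representative 1433443_a_at being that at −0.12.

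Of the transcription factors of the lineage, 11 of 17 probe sets were tested and 3 had a positive difference, with a median of −0.77. At an unadjusted p under 0.05, 1 was higher and 3 were lower, close to the 9.67% and 20.5% of all tested. Olig1, a helix-loop-helix factor of oligodendrocytes, differed by 1.18 (limma adjusted p = 0.0839) and Tcf7l2 1429428_at, an effector of Wnt signalling that takes part in their maturation, by −1.56 (adjusted p = 0.0831). The other Tcf7l2 probe sets differed by −0.27 for the representative 1426639_a_at, −0.77 for 1429427_s_at and −1.07 for 1425229_a_at. Sox10, which drives myelin genes, gave −1.05 (adjusted p = 0.120) for 1424985_a_at, 0.20 for 1451689_a_at and −1.09 for a probe set below the filter. Olig2 and Myrf were below the filter and differed by −0.53 and 0.21.

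Markers of other cells are given by the representative probe set of each gene. Of these, 0 had a limma adjusted p under 0.05, where 0.0133% of all tested probe sets did. An unadjusted p under 0.05, counted below, was reached by 30.2% of all tested probe sets. Of the astrocyte markers 7 of 10 had a higher mean in High Exploration mice, and 2 of 9 tested had an unadjusted p under 0.05. Their mean log2 signal overlapped, at 10.59 to 11.28 in High Exploration mice, against 10.03 to 10.94 in Low Exploration mice. Their summed signal, in which the connexin gene Gja1 weighs most, did not overlap, at 55820 to 78050 in High Exploration mice, against 29250 to 45090 in Low Exploration mice. Gja1 averaged 15.13 in High Exploration mice, against 13.88 in Low Exploration mice, on the log2 scale.

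Of the endothelial markers 1 of 7 had a higher mean in High Exploration mice, and 3 of 5 tested had an unadjusted p under 0.05. These were Flt1 and Kdr, with differences of −1.68 and −1.39, and Slco1a4, with 1.19. The mean log2 signal of the endothelial list was 7.23 to 8.52 in High Exploration mice, against 8.21 to 9.10 in Low Exploration mice. Its summed signal was 3139 to 5593 in High Exploration mice, against 2671 to 6700 in Low Exploration mice. Of the choroid plexus markers 1 of 7, Ttr, had a higher mean, and 0 of 3 tested had an unadjusted p under 0.05. The mean log2 signal of that list averaged 7.78 in High Exploration mice, against 8.71 in Low Exploration mice, while its summed signal, in which Ttr weighs most, went the other way, at 20140 to 34210 in High Exploration mice, against 16520 to 26680 in Low Exploration mice.

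Of the microglia markers 5 of 9 had a higher mean, and 0 of 5 tested had an unadjusted p under 0.05. Their mean log2 signal was 8.28 to 9.04 in High Exploration mice, against 8.16 to 8.90 in Low Exploration mice, and their summed signal 11210 to 37420 in High Exploration mice, against 25880 to 46760 in Low Exploration mice. Of the oligodendrocyte precursor markers 5 of 10 had a higher mean, and 3 of 8 tested had an unadjusted p under 0.05. These were Ptprz1 and Tnr, with differences of 0.88 and 0.83, and Cspg4, with −1.30. The mean log2 signal of the precursor list was 8.16 to 8.79 in High Exploration mice, against 7.95 to 9.13 in Low Exploration mice. Its summed signal was 7693 to 15850 in High Exploration mice, against 6649 to 10560 in Low Exploration mice. Of the Schwann cell markers, which would come from peripheral nerve, 1 of 3 had a higher mean. Among the 10 neuron markers 3 had an unadjusted p under 0.05. No signal in the table was 0, and the part of these cells in the myelin values was not tested.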

How the data were processed

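Whole hippocampus RNA from 10 mice was hybridised to 1-colour Affymetrix mouse arrays. The values the authors deposited are MAS 5.0 signals, linear in scale. Trimmed of 2% at both ends, every array had a mean of 500, and the shape of the distribution was left as it was. The part of this scaling in the differences between the groups was not tested. The labels describe the standard labelling protocol and the methods of the study a double round of amplification, so which was used is not settled here. Groups follow the sample titles, because the design text given for the series is about a different experiment. The replicate numbers were given in accession order and name samples only. Array values have no counting depth, and 5 arrays per group limit the precision.

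Of the probe sets besides 64 controls, the platform annotation gave 34945 a single symbol, 932 several and 9160 none. The log2 signals were compared with limma 3.58.1 (lmFit and eBayes, R 4.3.3), adjusted p-values (Benjamini-Hochberg) being held to a threshold of 0.05, over the 22518 probe sets whose mean log2 signal was above the median of such means. The plan spoke only of mean signal. Taking the mean of log2 or of linear signals gives 3 or 51 calls over all probe sets, and the log2 reading was settled on with both counts known. Exact 2-sided permutation over 252 assignments served for measures taken once per array. The fit was tested on simulated data. All member probe sets were named, with the 3 smallest p in each list of other myelin genes, lipid enzymes and transcription factors, plus Olig2, Sox10 and Myrf, and a further gene that is not reported here. The members and lists, the motifs and the pairs described were chosen with earlier results of these data known. Alternatives were other scalings, a floor or pseudocount of 23.0 (the 10th percentile of signal), no filter, weights on arrays, and each array left out in turn.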

Additional observations from a re-analysis of the deposited data

How the results depend on the processing

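The limits are 5 arrays a group, signals as deposited with unequal medians, and probe sets of low signal whose values spread widely. The number of myelin probe sets passing limma, 0 as reported, was 2 with median centring, 1 with a pseudocount, 3 with array weights and 0 to 1 when an array was left out, and stayed at 0 under the other settings. Over all probe sets 3 passed, against 906 with median centring (830 higher, 76 lower), 341 with a pseudocount, 2186 with array weights, 0 with equal hybridisation controls, 32 without a filter and 51 with the filter on linear means, which was added after seeing the data. The number of myelin probe sets whose groups did not overlap was 3, beside 8.83% of all tested probe sets. It was 1 with cyclic loess normalisation, 2 with quantile normalisation and 4 with median centring. The share of all tested probe sets was not counted under these normalisations, so whether the change is particular to the myelin genes cannot be told. When an array was left out the number was 3 to 5 (5 without High Exploration replicate 3, where 13% of all tested probe sets did not overlap). The median difference of the tested myelin probe sets, 0.37, was 0.90 with median centring and 0.97 with equal hybridisation controls. It was 0.12 with quantile normalisation, 0.13 with cyclic loess and 0.15 without a filter, and 0.26 to 0.50 when an array was left out. Among the other myelin, lipid and transcription factor probe sets 0 passed, against 5 with median centring (Scd1, Olig1, Tspan2 and 2 Hmgcs1 probe sets) and 3 with array weights (Scd1, Olig1 and Hmgcs1), and 0 when an array was left out. The cause of these changes was not tested.

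Of the 24 myelin probe sets 14 kept their sign under every setting, and 10 did not. With quantile normalisation the sign turned for Mbp 1436201_x_at (−0.37), Mobp 1450088_a_at (0.41), Cnp 1418980_a_at (0.16) and Cnp 1437341_x_at (−0.22). Median centring turned Mbp 1425264_s_at (0.059), 1451961_a_at (0.077), 1454651_x_at (0.41) and 1456228_x_at (0.38), Mobp 1450088_a_at (0.33) and Cnp 1418980_a_at (0.15). Cyclic loess turned Mbp 1436201_x_at (−0.64), Mobp 1441308_at (0.017) and 1450088_a_at (0.42), and Cnp 1418980_a_at (0.23) and 1437341_x_at (−0.14). Equal hybridisation controls turned Mbp 1425264_s_at (0.13), 1451961_a_at (0.15), 1454651_x_at (0.48) and 1456228_x_at (0.45), Mobp 1441308_at (0.0042) and 1450088_a_at (0.40), Cnp 1418980_a_at (0.22) and Mal 1432558_a_at (0.028). The floor turned Mobp 1450088_a_at (0.13) and array weights Mbp 1436201_x_at (−0.10). When an array was left out, the difference ranged from −0.32 to 0.19 for Mbp 1436201_x_at, −0.46 to 0.045 for 1454651_x_at, −0.42 to 0.014 for 1456228_x_at, −0.94 to 0.26 for 1425264_s_at, −0.53 to 0.25 for Mobp 1450088_a_at, −1.07 to 0.35 for Cnp 1418980_a_at and −0.032 to 0.52 for Cnp 1437341_x_at. No paired analysis was possible because the labels give the groups no shared replicate numbers.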
